A study of Mus musculus with 30 samples.

Results

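The *Zfp* mRNAs encode mouse proteins named as zinc finger proteins, and their half-lives were described here in 2 lines of spermatogonial stem cells (SSCs). Members were all symbols made of *Zfp* followed by a digit that had a half-life in both lines, which gave 139 of 5806 transcripts. Of these, 123 also had an FPKM (a level per gene length and library depth) in both lines, and 16 had none. The remaining 5667 transcripts, of which 5029 had an FPKM, served for comparison.

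The study asked how the RNA-binding protein NANOS2, which SSCs need for their maintenance, acts on the mRNAs that it binds. SSC lines were derived from P7 mouse testes of a mixed DBA/2J and C57Bl/6 background and were grown on mouse embryonic fibroblast feeders, which per the labels were depleted before RNA was taken, while the study's methods describe cells sorted with a gate against residual feeder cells. The *Nanos2* TAG/+ line (line 4) and the *Nanos2* TAG/TAG line (line 5) both carried the *Nanos2* TAG allele, in which V5, Myc, PreScission, His and EGFP tags precede the NANOS2 protein, and neither line lacked NANOS2. SLAM-seq comprised 12 libraries per line, with 2 libraries at each of 6 chase times (0, 30, 60, 120, 540 and 1440 min), and RNA-seq comprised 1 library per line. Each genotype was represented by 1 line. The labels name QIAzol for the TAG/+ RNA-seq library and Trizol for the TAG/TAG library, so genotype, line and reagent cannot be told apart. Every transcript had 1 half-life per line, without an error or a depth, and a difference between the lines therefore has no replicate check and no p-value.

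In SLAM-seq, newly made RNA is labelled with 4-thiouridine, the label is then chased with unlabelled uridine, and the loss of T-to-C conversions over time gives the half-life of an mRNA. Most zinc finger proteins of the C2H2 type hold a zinc ion in each finger with a pair of cysteines and a pair of histidines, and they bind DNA through arrays of such fingers. Many of them also carry a KRAB domain, which recruits the corepressor TRIM28 and with it the histone methyltransferase SETDB1, and this machinery is known for silencing transposable elements and for protecting imprints in the germline and the early embryo. Proteins with fingers of the CCCH type, such as ZFP36L1, bind AU-rich elements in 3′ UTRs and recruit the CCR4-NOT deadenylase.

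Of the 139 members, 132 had at least 1 C2H2 finger in the annotated protein, 2 had CCCH fingers (*Zfp36l1* and *Zfp36l2*) and 5 had neither by the patterns searched (*Zfp330*, *Zfp365*, *Zfp503*, *Zfp703* and *Zfp839*). A KRAB A box was found in 70 members and a SCAN domain in 7, of which 3 also had a KRAB A box. The median was 10 C2H2 fingers among the 132 members, 12 fingers among KRAB members and 7 among the other C2H2 members. *Zfp142* had the most, with 37 fingers.

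The KRAB A box set the largest group of members apart, and 3 coding stretches of it are shown. They are from *Zfp558*, from the imprint regulator *Zfp445* and from *Zfp251*. *Zfp558* and *Zfp251* were the shortest-lived and longest-lived KRAB members by the mean of both lines. In the single lines, the longest-lived KRAB members were *Zfp667* (258 min, TAG/+) and *Zfp655* (227 min, TAG/TAG). Each is 111 bases (37 codons) on the minus strand of GRCm38, printed 5′ to 3′ on the coding strand, with capitals at the codons whose amino acid equals the consensus of the KRAB boxes of the *Zfp* proteins. The stretches lie at chr9:18467930-18468040 in exon 5 (*Zfp558*), chr9:122856709-122856819 in exon 5 (*Zfp445*) and chr15:76870292-76870402 in exon 2 (*Zfp251*).
Zfp558: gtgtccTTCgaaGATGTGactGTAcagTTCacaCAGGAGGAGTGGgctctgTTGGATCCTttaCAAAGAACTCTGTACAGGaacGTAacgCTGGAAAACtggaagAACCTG
Zfp445: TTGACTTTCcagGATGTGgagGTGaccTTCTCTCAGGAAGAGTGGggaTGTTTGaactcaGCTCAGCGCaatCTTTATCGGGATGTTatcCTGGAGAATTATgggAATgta
Zfp251: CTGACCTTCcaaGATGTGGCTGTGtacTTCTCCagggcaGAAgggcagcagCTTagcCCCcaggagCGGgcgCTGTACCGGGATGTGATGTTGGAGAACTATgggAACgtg
The amino acid equalled the consensus at 24 of 37 codons in *Zfp558*, 27 in *Zfp445* and 24 in *Zfp251*.

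The finger types are shown for the members at both ends of the half-life range and for both CCCH members, with capitals at the codons of the zinc-binding cysteines and histidines. A C2H2 finger of *Zfp558* is at chr9:18456957-18457019 (minus strand, exon 8) and the only finger found in *Zfp428*, the longest-lived member, is at chr7:24515450-24515512 (plus strand, exon 3). CCCH fingers of *Zfp36l1* and *Zfp36l2* are at chr12:80110189-80110248 and chr17:84186668-84186727 (both minus strand, exon 2).
Zfp558: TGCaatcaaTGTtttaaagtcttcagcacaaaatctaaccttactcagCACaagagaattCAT
Zfp428: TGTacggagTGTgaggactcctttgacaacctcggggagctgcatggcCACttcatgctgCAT
Zfp36l1: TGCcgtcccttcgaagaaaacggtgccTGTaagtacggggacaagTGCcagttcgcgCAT
Zfp36l2: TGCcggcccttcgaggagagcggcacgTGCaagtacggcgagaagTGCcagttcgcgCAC

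FPKM was scaled to 10908790 reads in the TAG/+ library and 11738620 reads in the TAG/TAG library, and multiplication by gene length gave whole reads for 99.9% of genes in each. The members' median FPKM was 10.3 in both lines, and their median number of reads was 265 (TAG/+) and 258 (TAG/TAG). The fewest reads of a member were 15 and 8, so the FPKM of the lowest members is imprecise. In 8 members (*Zfp442*, *Zfp638*, *Zfp706*, *Zfp937*, *Zfp955b*, *Zfp960*, *Zfp980* and *Zfp984*), over 20% of the 50-mers in the last 300 bases of the transcript are also found in another gene, so that reads could be shared and their values are uncertain. Over the whole transcript, the share also exceeded 20% in members outside these 8. Among them were *Zfp429* (26.1%), *Zfp93* (20.7%) and *Zfp729b* (40.8%), whose FPKM is therefore uncertain too. The list of markers of undifferentiated spermatogonia held 8 genes, since another entry, *Plzf*, is an older name of *Zbtb16*. All 8 had an FPKM and none was at 0. Their summed FPKM was 642 (TAG/+) and 885 (TAG/TAG). In this sum, *Gfra1*, *Ret* and *Etv5* were higher in the TAG/TAG library and the other 5 were lower. The 4 markers of differentiating spermatogonia summed to 67.3 and 52.2, with *Dmrtb1* higher in the TAG/TAG library and the other 3 lower. Of the 3 germ cell markers, *Ddx4* (31.0 and 41.4) and *Tex101* (148 and 157) had an FPKM and were higher there, and *Dazl* had none. All 10 markers of fibroblast feeders, which the sort would remove, were also above 0, and their sum was 353 and 470. *Fn1* alone had 254 and 280, and 9 of the 10 were higher in the TAG/TAG library and *Col3a1* was lower. Whether these genes were expressed by feeders or by the SSCs was not tested. The 2 listed Sertoli markers (of 3) summed to 4.70 and 24.1. The sums of feeder and Sertoli markers were thus higher in the TAG/TAG library, and their part in the members' values was not tested. In such bulk samples, fewer cells of a type and less RNA per cell cannot be told apart.

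*Zfp* mRNAs had shorter half-lives than other mRNAs in both lines. Their median half-life was 133 min in the TAG/+ line and 135 min in the TAG/TAG line (SD of both medians 1.62 min, n = 2 lines), against 226 and 228 min for the other transcripts (SD 1.42 min, n = 2 lines). The middle 50% of members, between the quartiles, had half-lives of 97.4 to 186 min in the TAG/+ line and 93.0 to 184 min in the TAG/TAG line. The middle of all 5806 transcripts lay higher, at 162 to 289 min and 159 to 300 min. The members therefore overlapped with the other transcripts, but were concentrated at the short end.

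The shift was seen at both ends of the range. A half-life under the lower quartile of all transcripts in both lines was found for 74 of 139 members (53.2%), against 15.6% of all transcripts. A half-life under the median in both lines was found for 113 members (81.3%), against 39.8% of all. At the long end, a single member (0.719%), *Zfp428*, was over the upper quartile in both lines, against 19.1% of all transcripts. Above the median in both lines were 5 members (3.60%), against 39.8% of all transcripts, namely *Zfp318*, *Zfp385b*, *Zfp428*, *Zfp512* and *Zfp598*. No member had a half-life over 540 min in either line, whereas 364 of all 5806 transcripts did in at least 1 line. These counts were not compared at similar FPKM.

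Half-lives of the members ranked similarly in both lines, with a Spearman correlation of 0.68 across 139 members, compared with 0.77 across the other transcripts. These transcripts share their libraries and are not independent replicates, so the correlations are descriptions. The plot of half-lives by line shows the members at the lower left of the cloud of all transcripts.

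**Figure D1:**
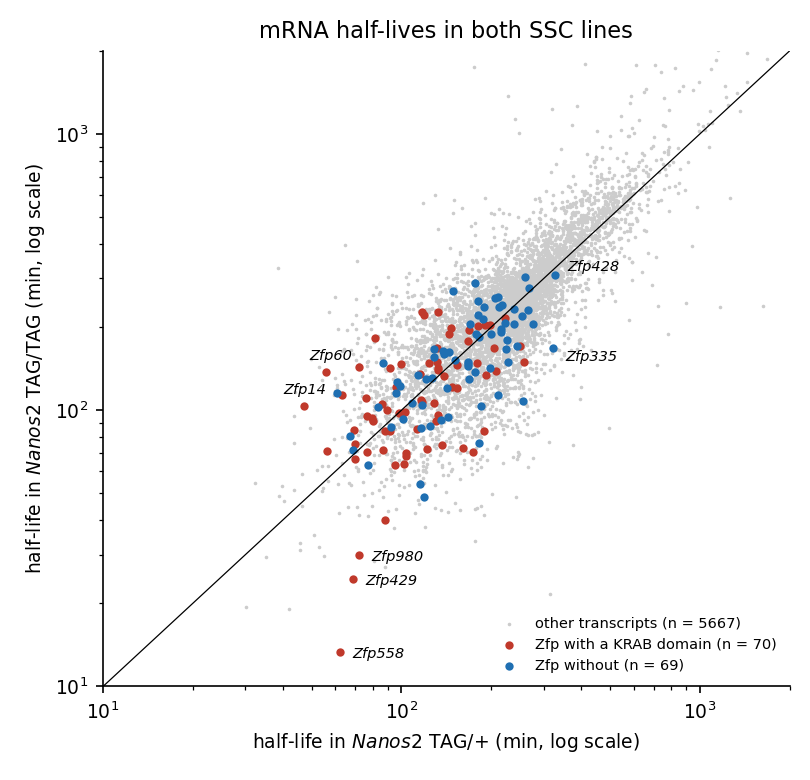
Half-life of each transcript in the *Nanos2* TAG/+ line (x axis) and the *Nanos2* TAG/TAG line (y axis), in min on log axes, with a diagonal at equal values, for *Zfp* mRNAs with a KRAB A box (red, 70), *Zfp* mRNAs without (blue, 69) and other transcripts (grey, of which 15 lie outside the axes). Most members sit below 226 and 228 min, the medians of the other transcripts, in both lines.

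Expression was taken into account next, since half-life rose with FPKM in members and other transcripts alike and members were expressed at a lower level. The Spearman correlation between half-life and mean FPKM was 0.44 (TAG/+) and 0.37 (TAG/TAG) across 123 members, and 0.49 and 0.47 across 5029 other transcripts. The median mean FPKM was 10.8 for members and 29.9 for the others. All transcripts with both values were therefore divided into 10 bins of equal size by mean FPKM, and other transcripts were weighted to the members' bins.

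At similar FPKM, *Zfp* mRNAs still had the shorter half-lives. The median of the 123 members was 132 min (TAG/+) and 134 min (TAG/TAG), and that of the weighted other transcripts was 194 min in both lines. The difference was -61.3 min in the TAG/+ line and -59.6 min in the TAG/TAG line (SD 1.15 min, n = 2 lines). The median member was at 68.4% of the half-life of its bin. The members' median was below that of the other transcripts in both lines in each of the 9 bins that held a member. In the lowest bin (mean FPKM 0.217 to 5.73), 40 members had medians of 108 and 111 min, against 153 and 156 min for the others. In the fourth bin (15.3 to 21.9), 14 members had 134 and 137 min, against 203 and 210 min. The gap varied among the upper bins. In the seventh (41.5 to 59.6), 7 members had 210 and 232 min and the others 240 and 241 min, in the eighth (59.6 to 87.2), 10 members had 205 and 153 min and the others 246 and 250 min, and in the ninth (87.2 to 155), 4 members had 257 and 260 min and the others 270 and 278 min. No member was in the tenth bin, above an FPKM of 155.

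Within the bins, 47 of 123 members (38.2%) were under the lower quartile of their bin in both lines, against 14.5% of all transcripts, and 0 were over the upper quartile in both lines, against 17.2% of all. Below the bin median in both lines were 87 members (70.7%), compared with 38.0% of the other transcripts. A further 25 members were on different sides of the bin median in each line. Above it in both lines were 38.0% of the other transcripts and 11 members (8.94%), namely *Zfp322a*, *Zfp365*, *Zfp428*, *Zfp512*, *Zfp593*, *Zfp622*, *Zfp704*, *Zfp729b*, *Zfp850*, *Zfp943* and *Zfp984*, of which 4 had a KRAB A box. Besides *Zfp593*, the members farthest above their bin were *Zfp729b* (KRAB; 198 and 203 min), *Zfp322a*, *Zfp704* (188 and 235 min) and *Zfp667* (KRAB; 258 and 150 min), and *Zfp667* was above its bin only in the TAG/+ line.

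**Figure D2:**
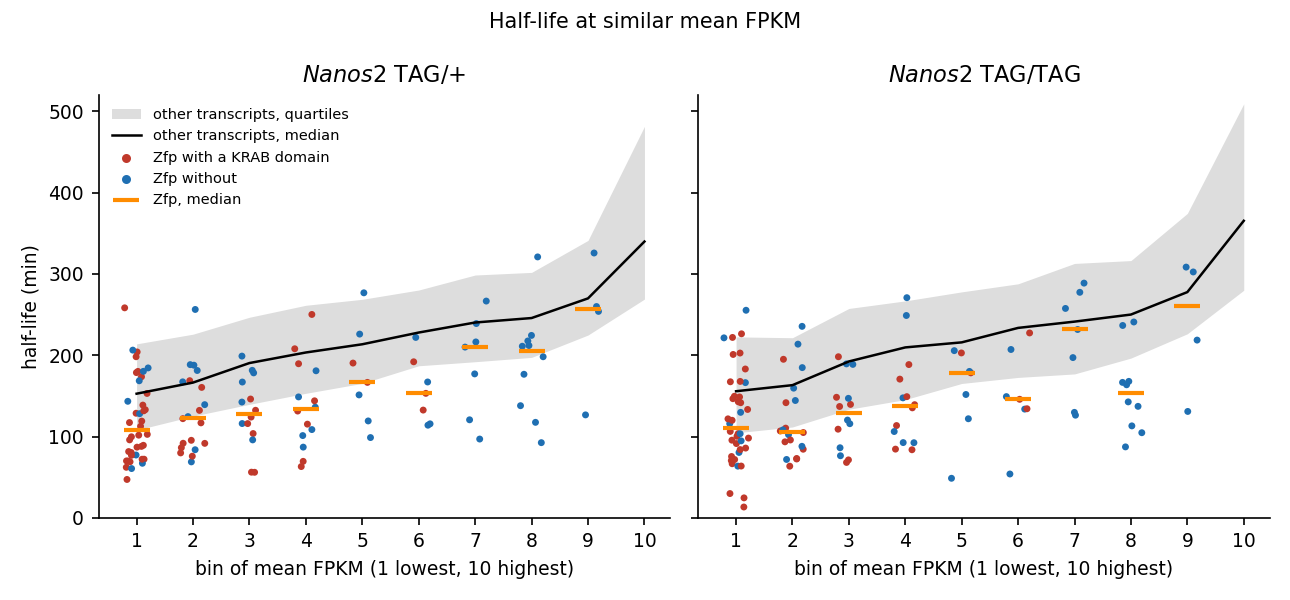
Half-life (min, linear axis) in each of 10 bins of mean FPKM, from the lowest to the highest, for the *Nanos2* TAG/+ line and the *Nanos2* TAG/TAG line, with red and blue points for *Zfp* mRNAs with and without a KRAB A box, orange bars for the medians of the members, and a black line and grey band for the median and quartiles of the other transcripts. The orange bars lie below the black line in all 9 bins that hold a member.

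The shortest-lived members were mostly KRAB genes. *Zfp558* (chr9:18455575-18478268) had a half-life of 62.2 min in the TAG/+ line and 13.3 min in the TAG/TAG line. *Zfp429* (chr13:67387905-67399819) had 69.0 and 24.5 min. *Zfp980* had 72.1 and 29.9 min, which are uncertain because 54.2% of its last 50-mers are shared. These genes had 26 and 45 reads (*Zfp558*), 45 and 28 reads (*Zfp429*) and 26 and 12 reads (*Zfp980*) in the TAG/+ and TAG/TAG RNA-seq libraries. Their half-lives in the TAG/TAG line were also below the first chase time of 30 min, as were those of 10 of all transcripts, and no transcript was below it in the TAG/+ line.

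Among the other short-lived members, several were short-lived in both lines. *Zfp719*, a KRAB gene, had 70.0 and 66.5 min. *Zfp800*, a C2H2 gene without a KRAB A box, had 68.8 and 71.8 min. *Zfp235* (KRAB) had 56.1 and 71.3 min. All 3 were below the lower quartile of all transcripts in both lines. *Zfp503*, which encodes a transcriptional corepressor, had 77.2 and 63.6 min, and its paralog *Zfp703* had 117 and 105 min. *Zfp707* (KRAB) had 88.0 and 40.1 min, and no FPKM was listed for it. *Zfp46*, a C2H2 gene at an FPKM of 33.6 and 32.5, had 116 and 53.9 min where the other transcripts of its bin had 228 and 234 min.

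None of the 8 longest-lived members had a KRAB A box. *Zfp428* (chr7:24507006-24515682) had the longest half-life, at 326 min (TAG/+) and 308 min (TAG/TAG), and an FPKM of 77.3 and 127. *Zfp318* (chr17:46383731-46420920) had 260 and 302 min and the highest mean FPKM of the members, from 114 and 124. *Zfp512* had 267 and 277 min. These 3 were above the median of all transcripts in both lines, as were *Zfp598* and *Zfp385b*. *Zfp598*, which encodes a ubiquitin ligase that senses collided ribosomes, had 265 and 231 min, *Zfp710* had 254 and 219 min, and *Zfp385b* had 239 and 232 min. The other two were less even between the lines, with 321 and 168 min for *Zfp335*, a transcriptional regulator needed by neural progenitors, and 277 and 206 min for *Zfp768*.

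**Figure D3:**
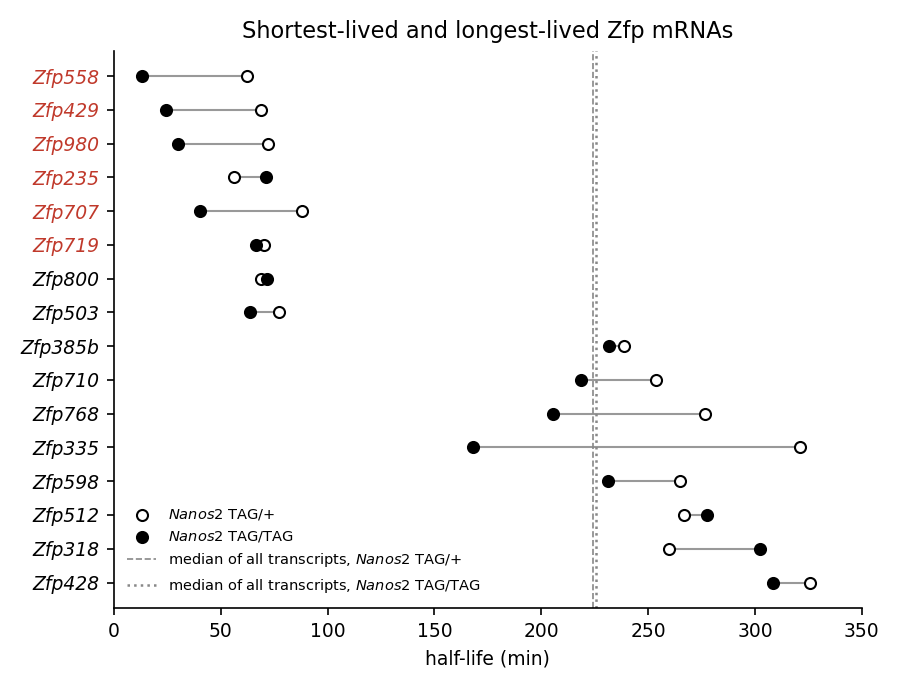
Half-life (min, linear axis) of the 8 shortest-lived and the 8 longest-lived *Zfp* mRNAs by the mean of both lines, with 1 point per line and a bar joining them. Labels in red mark KRAB genes, and the vertical lines mark the median of all transcripts, 224 min (TAG/+) and 226 min (TAG/TAG).

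KRAB members had shorter half-lives than the other members, but they were also expressed at a lower level. The median half-life of the 70 KRAB members was 116 min (TAG/+) and 110 min (TAG/TAG), and that of the 69 members without a KRAB A box was 170 and 152 min. The difference was -53.2 and -42.0 min (SD 7.88 min, n = 2 lines). In both lines under the lower quartile of all transcripts were 49 of 70 KRAB members (70%) and 25 of 69 other members (36.2%), against the 15.6% of all transcripts given above. The median mean FPKM was 5.89 for KRAB members and 19.7 for the others. At the same FPKM bins, the difference between KRAB members and other members was -27.0 min in the TAG/+ line and -3.50 min in the TAG/TAG line (SD 16.6 min, n = 2 lines), and -27.2 min for the mean of both lines. This SD comes from the same 2 line values and so cannot judge them. At the same FPKM bins, the lines thus differed in the size of the difference.

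Both groups were short-lived relative to other transcripts of similar FPKM. The 62 KRAB members with an FPKM differed from them by -57.7 min (TAG/+) and -56.9 min (TAG/TAG) (SD 0.534 min, n = 2 lines). The 61 members with an FPKM and no KRAB A box differed by -43.7 and -65.1 min (SD 15.1 min, n = 2 lines). The median KRAB member was at 66.8% of its bin and the median member without a KRAB A box at 78.0%. Under the lower quartile of the bin in both lines were 25 of 62 KRAB members (40.3%) and 22 of 61 others (36.1%), against the 14.5% of all transcripts. The 58 other C2H2 members had medians of 179 and 161 min, the 4 SCAN members without a KRAB A box 96.1 and 104 min, and the 5 members with no finger found 142 and 120 min.

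**Figure D4:**
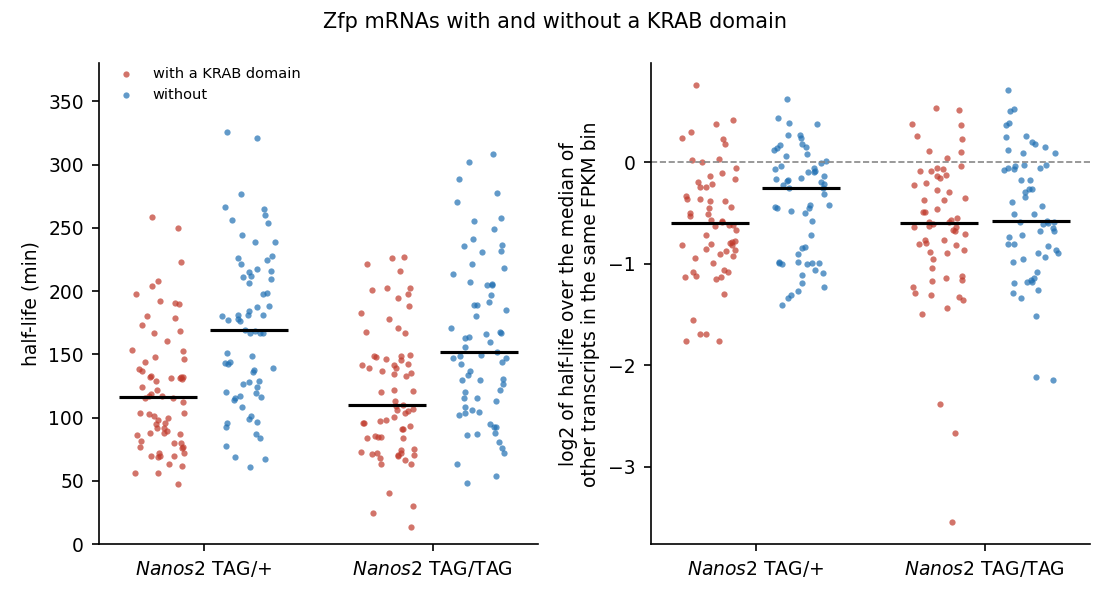
Half-life of *Zfp* mRNAs with a KRAB A box (red, 70) and without (blue, 69) in each line, in min on a linear axis (left), and the log2 of the half-life over the median of other transcripts in the same FPKM bin for the 62 and 61 with an FPKM (right), where each point is 1 mRNA, black bars are medians and the dashed line marks equality with the bin. The medians on the left are 116 and 110 min with the KRAB A box and 170 and 152 min without, and all medians on the right lie below the dashed line.

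Members known for protecting imprints or silencing retroelements were all below the median of all transcripts in both lines. So were 81.3% of all members and 39.8% of all transcripts. A list of 12 such KRAB genes held 4 members, with median half-lives of 118 and 119 min (TAG/+ and TAG/TAG). *Zfp445*, which protects imprints together with *Zfp57*, had 132 and 168 min at an FPKM of 4.50 and 6.29. *Zfp568*, which represses a placental transcript of *Igf2*, had 190 and 203 min at an FPKM of 28.4 and 21.6. *Zfp961* had 104 and 68.1 min and *Zfp992* had 104 and 69.7 min. Relative to the FPKM bin, *Zfp568* and *Zfp961* were below the median in both lines and *Zfp445* only in the TAG/+ line. Of the list, 6 genes had an FPKM and no half-life. Among these, *Zfp57* had an FPKM of 7.67 and 23.0 (85 and 274 reads), *Zfp809*, which silences retroviruses, had 2.93 and 4.05, and *Zfp989* had 32 reads in the TAG/+ library and was listed at 0 in the TAG/TAG library.

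Pluripotency and chromatin regulators had half-lives closer to those of all transcripts. The 9 members on this list of 19 genes had medians of 180 min in both lines, and 5 were below the median of all transcripts in both lines and 0 above it, where 39.8% of all transcripts lie on each side. *Zfp281*, a transcription factor of pluripotent cells, had the shortest half-life of them, at 116 and 86.2 min. *Zfp148* had 144 and 163 min, *Zfp518a* had 129 and 156 min, and *Zfp532* had 170 and 205 min. These were below the median of all in both lines. *Zfp687*, whose protein acts with ZFP532 and ZFP592 in 1 chromatin complex, had 212 and 237 min, *Zfp219* had 218 and 241 min, and *Zfp518b* had 226 and 180 min. *Zfp322a* had 180 and 221 min at an FPKM of 3.00 and 3.88, where the other transcripts of its bin had 153 and 156 min. It thus lay above its bin in both lines while remaining below the median of all.

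Factors that act on RNA, ribosomes or the spindle had the longest median half-lives of the 4 lists, which were not compared at similar FPKM. The 10 members on this list of 14 genes had medians of 214 and 210 min, with 4 below the median of all transcripts in both lines and 2 above it in both (*Zfp318* and *Zfp598*), again where 39.8% of all lie on each side. *Zfp593* (chr4:134243289-134245592), which takes part in the assembly of the large ribosomal subunit, had 206 and 255 min at an FPKM of 3.93 and 4.07, and was farthest above its bin (153 and 156 min) by the mean log2 ratio of both lines, although *Zfp667* and *Zfp639* were farther above theirs in the TAG/+ line. *Zfp622*, another ribosome assembly factor, had 188 and 214 min. *Zfp91*, a ubiquitin ligase, had 181 and 249 min. *Zfp346*, which binds double-stranded RNA, had 138 and 164 min, *Zfp385a* had 228 and 150 min, and *Zfp830*, a splicing factor, had 167 and 147 min. *Zfp706* had 222 and 207 min and *Zfp638* had 224 and 167 min, and these values are uncertain because 56.2% and 37.8% of their last 50-mers are shared.

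The CCCH genes that promote the decay of AU-rich mRNAs themselves had half-lives below those of other transcripts at their FPKM. *Zfp36l1* had 127 and 131 min at an FPKM of 106 and 110, the second highest mean FPKM of the members, and the other transcripts of its bin had 270 and 278 min. *Zfp36l2* had 167 and 149 min at an FPKM of 27.5 and 50.2, against 228 and 234 min in its bin. *Zfp36* itself had an FPKM of 20.9 and 23.2 and no half-life. Both members with a half-life held the AU-rich heptamer UAUUUAU in their own 3′ UTR, with 3 matches each. At least 1 match was found in 38.4% of members and 32.3% of other transcripts, and its part in these half-lives was not tested. For each gene, 1 match is shown in capitals with 10 bases on either side, as RNA. The sites are at chr12:80108423-80108449 (*Zfp36l1*, 1150 bases after the stop codon) and chr17:84184915-84184941 (*Zfp36l2*, 822 bases after the stop codon), both on the minus strand of GRCm38.
Zfp36l1: uaucaaaacgUAUUUAUugccaaacua
Zfp36l2: cuauuuaacuUAUUUAUuaucuuguga

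The mRNAs of the corepressor machinery that KRAB proteins act through had median half-lives above those of the members. Of 16 such genes, 11 had a half-life, with medians of 247 min (TAG/+) and 268 min (TAG/TAG), and 10 of the 11 were above the members' median in both lines, as were 75.6% of all transcripts. These genes were not compared at similar FPKM. *Trim28*, the corepressor that binds the KRAB domain, had 293 and 287 min at an FPKM of 952 and 815. *Setdb1* had 247 and 260 min. *Dnmt1*, the maintenance DNA methyltransferase, had 473 and 420 min. The exception was *Fam208a*, a HUSH complex subunit, with 113 and 127 min at an FPKM of 1.64 and 1.60.

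Other gene families with zinc fingers had differences from transcripts of similar FPKM in the same direction. *Klf* genes (9) had medians of 108 and 114 min, and the 8 with an FPKM differed by -82.0 and -66.3 min. The *Zbtb* genes (21) had 138 and 148 min (-55.7 and -46.5 min for the 19 with an FPKM). The *Zkscan* genes (6) had 98.7 and 119 min (-80.1 and -60.0 min). The *Zscan* genes (6) had 148 and 117 min (-38.2 and -66.9 min). The *Zc3h* genes (11), which encode CCCH proteins, had 213 and 182 min (-18.3 and -51.4 min). The members' differences of -61.3 and -59.6 min lay within the range of these families, and no test of a difference between families was made.

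Half-life was lower in members with more than 5 fingers. Members with 1 to 5 C2H2 fingers (28) had medians of 188 and 173 min, those with 6 to 10 (39) had 132 and 108 min, those with 11 to 15 (46) had 121 and 128 min, and those with 16 or more (19) had 117 and 126 min. The Spearman correlation with finger number was -0.38 (TAG/+) and -0.27 (TAG/TAG) across 132 members. Within the 70 KRAB members it was -0.01 and 0.07, and within 62 C2H2 members without a KRAB A box it was -0.38 and -0.35. Members with more fingers also had a lower FPKM (-0.31, n = 116), and the half-life relative to the bin correlated with finger number at -0.19 (n = 116). These are descriptions across mRNAs that share their libraries.

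The 3′ UTRs of members were AU-rich and long, with a median AU content of 59.4% and a median length of 1578 bases, compared with 56.0% and 1200 bases for other transcripts. The Spearman correlation of half-life with AU content was -0.34 and -0.30 across 138 members and -0.07 and -0.06 across 5615 other transcripts. Members with AU-rich 3′ UTRs also had a lower FPKM (-0.46, n = 122), and relative to the bin the correlation was -0.10. With 3′ UTR length, half-life correlated at -0.02 and 0.09 in members, and at -0.27 and -0.26 in other transcripts. The G and C content at the third codon position had a median of 52.0% in members, 41.4% in KRAB members and 59.1% in other transcripts.

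The motif AUKAAWU, the consensus of NANOS2 in the study (K stands for G or U and W for A or U), was searched on the sense strand of 3′ UTRs. It was found in 73 of 138 members (52.9%) and in 41.6% of the 5615 other transcripts, or 0.562 and 0.485 matches per kilobase. Members with a match had half-lives of 124 and 121 min, and those without had 167 and 147 min. The members with a match had longer 3′ UTRs (medians of 2008 and 1100 bases) and a lower FPKM (7.04 and 16.1). Relative to the FPKM bin, members with a match were at 63.7% and those without at 75.8%, compared with 93.0% and 103% for other transcripts. UAUUUAU was found in 38.4% of members and 32.3% of others, at 0.293 and 0.292 matches per kilobase. Relative to the FPKM bin, members with UAUUUAU were at 66.7% and those without at 70.7%, compared with 91.9% and 102% for other transcripts. A match is a description of the letters and not a site of binding.

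Matches in 2 short-lived members (*Zfp719* and *Zfp800*) and in a long-lived member (*Zfp318*) are shown with 10 bases on either side, as RNA, with the match in capitals. They lie at chr7:43591478-43591504 (*Zfp719*, plus strand, 291 bases after the stop codon), chr6:28240665-28240691 (*Zfp800*, minus strand, 976 bases) and chr17:46414322-46414348 (*Zfp318*, plus strand, 546 bases).
Zfp719: cuugguuuuaAUGAAAUuuuauuuauc
Zfp800: auugaaaauaAUGAAUUcuuguucauc
Zfp318: ucauuggcuuAUUAAUUagcuccuuac
The 3′ UTRs of *Zfp719*, *Zfp800* and *Zfp318* held 2, 3 and 3 matches. *Zfp558*, *Zfp429* and *Zfp428*, at both ends of the half-life range, held 0 matches. Their 3′ UTRs were short, at 75, 562 and 152 bases, against a median of 1578 bases in members. *Zfp980*, also among the shortest-lived members, held 1 match in 1801 bases.

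Many members lay near other *Zfp* genes. Chromosome 7 held 30 members, chromosome 17 held 17 and chromosome 8 held 11. Another *Zfp* gene of the tables lay within 100 kb of 74 members, of which 56 had a KRAB A box, and *Zfp111* on chromosome 7 had the most such neighbours, with 9. Members with a neighbour had median half-lives of 120 and 131 min, and the 65 without had 160 and 147 min. Those with a neighbour also had a lower median mean FPKM (6.94 against 19.1), and these groups were not compared at similar FPKM. The 30 members on chromosome 7 had 118 and 134 min and reached from *Zfp14*, with 47.2 min in the TAG/+ line, to *Zfp428*.

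Between the lines, half-lives of members were longer in the TAG/TAG line for 65 and shorter for 74. The median log2 ratio (TAG/TAG over TAG/+) was -0.06 for members and 0.04 for all transcripts, and the median absolute log2 ratio was 0.30 for members with an FPKM and 0.33 for other transcripts at similar FPKM. A ratio of at least 1.5-fold was found towards a longer half-life in the TAG/TAG line for 13 members (9.35%), against 10% of all transcripts, and towards a shorter one for 22 members (15.8%), against 10.7% of all. At 2-fold, 3 members (2.16%) were longer, against 3.05% of all, and 11 (7.91%) were shorter, against 3.67% of all.

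The largest ratios in both directions were mostly those of KRAB genes, which made up 50.4% of the members. KRAB members also had a lower median mean FPKM (5.89 against 19.7), and its part in these ratios was not tested. *Zfp60* had 56.0 min in the TAG/+ line and 137 min in the TAG/TAG line (log2 ratio 1.29). *Zfp14* had 47.2 and 103 min (1.13), *Zfp942* had 72.1 and 143 min (0.99) and *Zfp229* had 117 and 226 min (0.95). *Zfp442* had 81.5 and 183 min (1.17), with 31.9% of its last 50-mers shared with another gene and 31 and 8 reads. In the other direction, *Zfp558* had a log2 ratio of -2.22 and *Zfp429* of -1.49. *Zfp93* (KRAB) had 174 and 70.4 min (-1.30), and *Zfp408*, the only one of these without a KRAB A box, had 119 and 48.6 min (-1.29). *Zfp980* had a log2 ratio of -1.27. With 1 half-life per line, none of these differences can be set against a replicate error.

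FPKM of the members differed little between the lines, with a median log2 ratio (TAG/TAG over TAG/+, pseudocount 0.1) of -0.02, compared with 0.01 for all 13904 genes, and was higher in the TAG/TAG library for 58 members and lower for 65. At least 2-fold higher were 7 of 123 members (5.69%), against 13.5% of all genes, namely *Zfp365*, *Zfp503*, *Zfp612*, *Zfp93*, *Zfp936*, *Zfp951* and *Zfp956*. At least 2-fold lower were 2 members (1.63%), against 9.59% of all genes, namely *Zfp442* and *Zfp980*, both with few reads and shared sequence. The table of all genes also holds genes with fewer reads than the members, which limits this comparison.

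*Zfp951* had an FPKM of 4.58 in the TAG/+ library and 13.0 in the TAG/TAG library, which correspond to 103 and 315 reads and a ratio of 2.84 (95% interval 2.27 to 3.59). *Zfp93* had 2.09 and 5.92 (46 and 140 reads; ratio 2.83, interval 2.01 to 4.04). *Zfp365* had 3.56 and 9.61 (93 and 270 reads; ratio 2.70, interval 2.12 to 3.45). The intervals cover counting error only and compare 2 libraries, not the genotypes. *Zfp503* had 15 and 80 reads, with an interval of 2.83 to 9.27. Among members with an FPKM of at least 1 in both lines, *Zfp426* was lowest in the TAG/TAG library relative to the TAG/+ library, with 21.4 and 10.8 (ratio 0.505, interval 0.429 to 0.593), followed by *Zfp87* with 28.1 and 14.5 (0.516, interval 0.429 to 0.619). *Zfp984* had 4.21 and 2.29, *Zfp703* had 91.1 and 51.1 and *Zfp141* had 18.1 and 10.3. *Zfp936* (11.9 and 26.7) and *Zfp612* (2.76 and 5.68), both KRAB genes, completed the 5 highest ratios. The lowest levels of all members were those of *Zfp120* (FPKM 0.552 and 0.483, half-life 76.9 and 95.5 min), *Zfp980*, *Zfp442*, *Zfp563* (FPKM 0.939 and 0.705, half-life 102 and 63.7 min) and *Zfp503*.

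Changes of FPKM and of half-life between the lines did not run in parallel among the members. *Zfp951*, with the highest FPKM ratio of the members with an FPKM of at least 1 in both lines, had a half-life of 160 min in the TAG/+ line and 73.0 min in the TAG/TAG line. *Zfp93* likewise had a higher FPKM and a shorter half-life in the TAG/TAG line. *Zfp87* had a lower FPKM there and also a shorter half-life (190 and 83.7 min), and *Zfp365* had nearly equal half-lives (181 and 185 min). Across 123 members the Spearman correlation between both log2 ratios was -0.14.

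**Figure D5:**
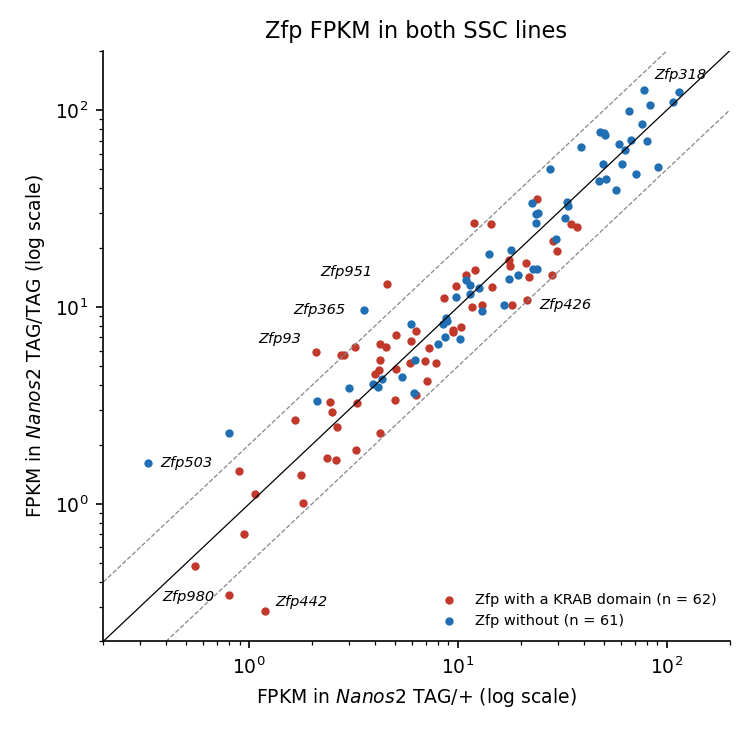
FPKM of the 123 *Zfp* genes with a half-life in the *Nanos2* TAG/+ library (x axis) and the *Nanos2* TAG/TAG library (y axis) on log axes, with a KRAB A box (red, 62) or without (blue, 61), a solid line at equal values and dashed lines at 2-fold. Above the upper dashed line are 7 members and below the lower one are 2, and the other members lie between them.

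The members had a higher median FPKM than the *Zfp* genes without a half-life. In the RNA-seq table, 347 *Zfp* genes had an FPKM, and the 224 of them without a half-life had medians of 2.88 (TAG/+) and 2.68 (TAG/TAG), compared with 10.3 and 10.3 for members. Among these 224, 4 were above every member in both lines, namely *Zfp207* (276 and 346), *Zfp217* (277 and 260), *Zfp106* (159 and 159) and *Zfp644* (115 and 134). Of the 215 of these 224 with an annotated protein, 139 (64.7%) had a KRAB A box, compared with 50.4% of members. Half-lives of these 139 KRAB genes are not described here.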

How the data were processed

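The deposited half-lives (min) are the authors' estimates. SlamDunk gave T-to-C conversion rates, which were scaled to those at the chase start, and nls in R then fitted exponential decay to them with technical replicates merged. Their unit has no depth or error. The FPKM values were deposited by the authors, and the submitters' processing notes name kallisto and DESeq2 without a role. The aligner settings and the build behind FPKM are not given in the sources used here. The half-life sets are named for the TAG/+ and TAG/TAG lines while the labels call them by control and experiment, and the FPKM columns were mapped to the lines by their names.

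Whole reads were recovered from FPKM with the mean length of the annotated transcripts (tolerance 0.02 reads). A pseudocount of 0.1 was added to FPKM before log2 ratios. Intervals of read ratios are exact binomial with 95% confidence. Comparisons at similar FPKM used 10 bins of mean FPKM, with medians of other transcripts weighted to the members' bins. No test was run, since each line gave 1 value.

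Positions and sequences are from GRCm38 with GENCODE M21, with 1 coding transcript per gene. A KRAB A box was called at a BLOSUM62 score of at least 60 against a consensus derived from the *Zfp* proteins, and this limit, with 50 and 100 as alternatives, was chosen after the scores were seen. Scripts were tested on simulated data. Python 3.11.15, numpy 2.4.6, pandas 2.3.3, scipy 1.17.1, Biopython 1.88 and pysam 0.24.0 were used. CRAC libraries were not analysed here.

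Members and gene lists were chosen with earlier results of these data known. Genes named are the 8 shortest-lived and 8 longest-lived members, the 5 with the highest and lowest FPKM, the 5 largest ratios between the lines in each direction for half-life and for FPKM (at an FPKM of at least 1), the 5 farthest below and above their FPKM bin, and listed members. Members named in counts of 16 or fewer, those of the KRAB, finger and neighbour descriptions and *Zfp251* were named after their values were seen.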

Additional observations from a re-analysis of the deposited data

How the results depend on the processing

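No paired analysis was possible because the results come from no test, and leaving out a line leaves 1 value per transcript. The median half-life of members (mean of both lines, 136 min) was 133 min in the TAG/+ line alone, 135 min in the TAG/TAG line alone and 144 min as a mean. The difference from other transcripts at similar FPKM (-54.8 min from the mean of both lines) was -89.0 min without bins, -57.3 min at an FPKM of at least 1, and -61.3 and -59.6 min in the TAG/+ and the TAG/TAG line alone. Short half-lives, found for 74 members, were found for 113 with the median as limit and for 47 with the quartile of the bin, and long ones, found for 1 member, for 0 within the bin and for 2 in each line alone. At 2-fold in place of 1.5-fold, 3 and 11 members, in place of 13 and 22, had longer and shorter half-lives in the TAG/TAG line. A pseudocount of 1 gave 4 members with a higher FPKM (7 before) and 0 with a lower one (2 before), and an FPKM of at least 1 gave 0 with a lower one. KRAB members differed from other members by -43.8 min (mean of both lines), by -27.2 min in the same bins and by -53.2 min in the TAG/+ line alone. The excess of members with AUKAAWU of 11.3 percentage points was 0.0776 matches per kilobase, and that of UAUUUAU, 6.08 points, was 0.000773 matches per kilobase and turned to -1.65 points in the last 500 bases, a window chosen after seeing the data. The causes were not tested. Other alternatives, among them 20 bins, half-lives of up to 1440 min, other families left out, other KRAB limits and, added after seeing the data, members with shared sequence left out, moved these values by less than the spread between the lines or by less than 1.5 times. The members left out for shared sequence were the 8 named above for their last 300 bases. Half-lives have no depth, which leaves their precision unknown.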
